A study of Mus musculus with 4 samples.

Results

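Chromatin remodellers, which use ATP to move or evict nucleosomes, and the enzymes that write or erase histone methylation were examined for H3K36me3, a methyl mark on the body of transcribed genes. The members were 67 genes of the 20780 protein-coding genes on chromosomes 1 to 19, taken by a rule on gene symbols from the Smarc, Arid, Chd, Ino80, Kmt, Kdm, Setd, Ehmt and Ezh families. Of 72 matching symbols, the rule set aside 5 by name, Setd2 among them, without a stated reason, and 4 more on the sex chromosomes were not members. Not every member acts on histones. Setd3 methylates actin, Setd6 has non-histone substrates, and several Arid proteins are sequence-selective DNA-binding factors. The Setd2-KO group was primary renal tubular epithelial cells (PTECs) of C57BL/6 mice with genotype SETD2fl/fl KspCre/+, and the control group was PTECs of the same strain with genotype SETD2fl/fl and no Cre, so both carried the floxed alleles. Cre was driven by the promoter of kidney-specific cadherin (Ksp, the product of Cdh16), and ages, sexes and the number of animals per library are not given in the labels. The cells were isolated from kidney cortex, and antibody ab9050 was used for the immunoprecipitation. There was 1 ChIP library and 1 input library for each genotype, 4 libraries in all, without replicates, so each difference compares these libraries and no p-value is given. Intervals are 95% exact Clopper-Pearson intervals and cover counting error only.

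SETD2 is recruited to elongating RNA polymerase II and trimethylates lysine 36 of histone H3 behind it, so the mark builds up along the body of a gene and toward its end, away from the start. SWI/SNF, CHD, ISWI and INO80 enzymes change nucleosome position or composition. Most KMT2 and SET1 enzymes methylate H3K4 at promoters and enhancers, EHMT enzymes methylate H3K9, EZH enzymes methylate H3K27 and KMT5 enzymes methylate H4K20. KDM enzymes remove such marks. SWI/SNF subunits and several of the methyltransferases are recurrently mutated in kidney and other cancers.

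The authors' peak lists held 2732 Setd2-KO peaks covering 1.44 Mb and 12242 control peaks covering 6.43 Mb. The genome-wide background pileup recovered from the lists was 6.54 fragments in the Setd2-KO library and 6.58 fragments in the control library, a ratio of 0.994, and is the measure of depth used here. Setd2 itself (chr9:110532597-110618633) carried 0 Setd2-KO and 5 control peaks, which does not check the genotype labels, since the mark over a whole gene does not measure recombination. Of 8 proximal tubule marker genes, 3 carried a Setd2-KO peak and 6 carried a control peak. Of 8 markers of later nephron segments (the loop, the distal tubule and the collecting duct), Cdh16 included, 0 did in either list. Of the podocyte, endothelial, fibroblast and immune markers, 4 of each, only Podxl and Kdr carried a control peak, and none carried a Setd2-KO peak. Each peak carries a pileup (the number of fragments over its summit), a fold enrichment (the ratio of that pileup to the local background) and a q-value against the input. A gene is called marked where a peak overlaps its body by 1 bp or more, and positions are those of GRCm38. A remaining mark in cells in which Cre did not act cannot be told apart from a mark kept after deletion.

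A called peak was found in 21 of the 67 members in Setd2-KO PTECs (31.3%, 95% CI 20.6 to 43.8) and in 49 in control PTECs (73.1%, 95% CI 60.9 to 83.2). The corresponding shares of all protein-coding genes were 7.76% in the Setd2-KO list and 20.5% in the control list. Both lists marked 20 members, the Setd2-KO list alone marked 1, the control list alone marked 29, and neither marked 17. Over all 20780 protein-coding genes these numbers were 1473, 140, 2797 and 16370. Of the 49 members with a control peak, 40.8% (95% CI 27.0 to 55.8) also had a Setd2-KO peak, against 34.5% of all genes with a control peak, a value that lies inside the members' interval. Of the members with a control peak, 8 had only 1 and 18 had 5 or more. When at least 2 peaks were required, 9 members were marked in Setd2-KO PTECs and 41 in control PTECs, and with peaks of at least 4-fold enrichment only, 10 members were marked in Setd2-KO PTECs and 29 in control PTECs.

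Peaks covered 19307 bp of the members in Setd2-KO PTECs and 121331 bp in control PTECs, a 6.28-fold larger total in control, while over all protein-coding genes it was 4.62-fold larger. Peak numbers were 47 in Setd2-KO PTECs and 251 in control PTECs. In each of the 20 members marked in both lists fewer bases were covered in Setd2-KO PTECs, as in 91.9% of all genes marked in both. The bases covered in Setd2-KO PTECs were 28.1% of those in control PTECs at the median of these 20 members, against 36.6% over all genes marked in both. Of the 20 members, 14 were of 30 to 100 kb, where the median was 29.7% in members and 29.5% over all such genes. At 10 to 30 kb (3 members) the medians were 12.2% and 42.5%, and at 100 kb or more (3 members) 28.8% and 31.9%. The control total at 30 to 100 kb was 4.89-fold larger in members and 5.49-fold larger over all genes. The members' fold was the higher at 10 to 30 kb (13.3 against 3.72) and at 100 kb or more (7.85 against 5.88). Both rest on few genes. At 10 to 30 kb the members' Setd2-KO total was 1153 bp in 3 peaks, and at 100 kb or more Chd2 held 4137 of 5694 bp. A few genes held much of the total. Chd2 and Chd4 together contributed 7796 bp, or 40.4%, of the Setd2-KO bases. The 3 members most covered in control PTECs (Chd2, Smarca2 and Chd4) contributed 32533 bp, or 26.8%, of the control bases. Without Chd2 and Chd4 the totals were 11511 bp in Setd2-KO PTECs and 98194 bp in control PTECs, and the control total was 8.53-fold larger. Chd2 and Chd4 held the most Setd2-KO bases of any members, so leaving them out by itself favours a higher fold. No genes were left out in this way from the total over all protein-coding genes. The 8.53-fold value therefore cannot be set beside the 4.62-fold value, and does not show a larger loss in the remaining members.

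**Figure D1:**
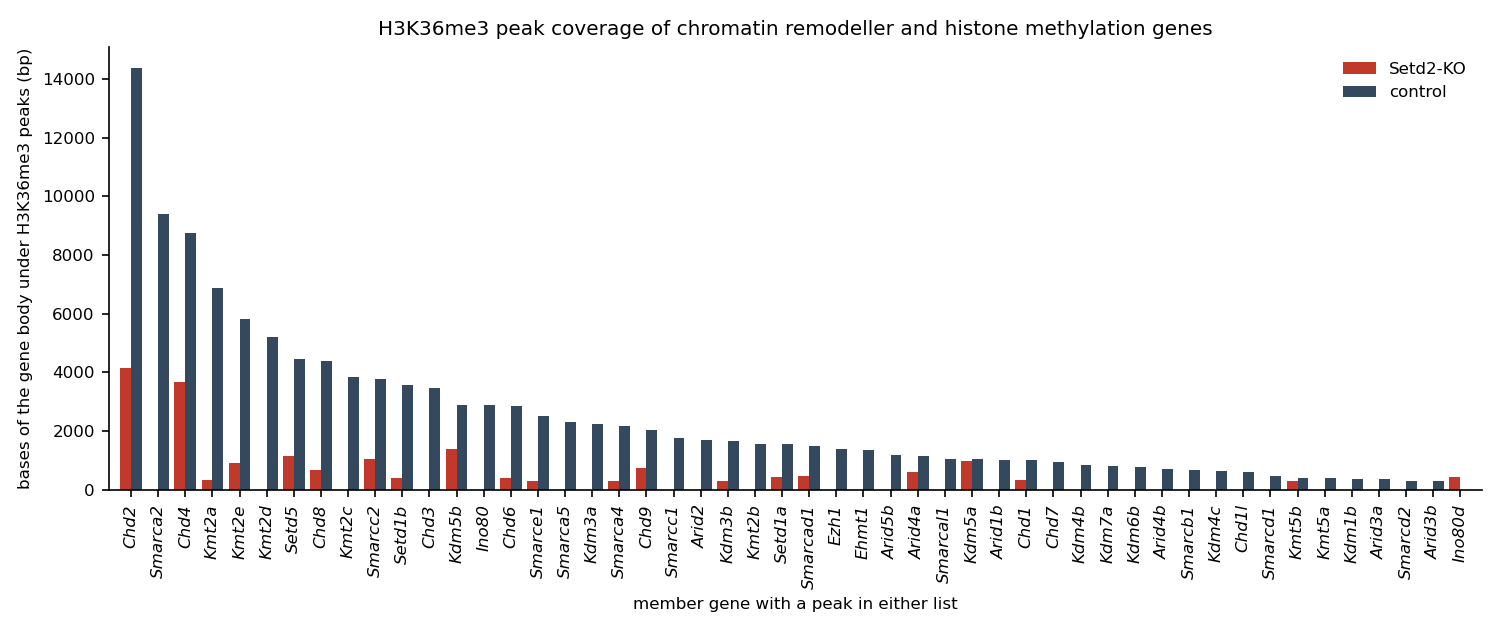
Bases of the gene body under H3K36me3 peaks (vertical axis, bp) in each of the 50 members with a peak in either list, with Setd2-KO PTECs on the left of each pair and control PTECs on the right. The Setd2-KO bar is lower than the control bar for every gene except Ino80d, and 29 genes have no Setd2-KO bar.

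The members were long, with a median of 49884 bp against 17636 bp for all protein-coding genes, and a long gene can hold more peaks. They were therefore also set beside genes of like length. Among members of 10 to 30 kb, 3 of 16 carried a Setd2-KO peak and 10 of 16 carried a control peak (62.5%). Of all genes in that class, 10.1% carried a Setd2-KO peak and 25.9% carried a control peak. Among those of 30 to 100 kb, 14 of 31 carried a Setd2-KO peak (45.2%) and 24 of 31 carried a control peak (77.4%), beside 12.3% of all genes in the Setd2-KO list and 31.7% in the control list. Among those of 100 kb or more, 4 of 15 carried a Setd2-KO peak (26.7%) and 14 of 15 carried a control peak (93.3%), beside 9.58% of all genes in the Setd2-KO list and 24.6% in the control list. For the Setd2-KO share, the members' 95% interval was 4.05 to 45.6 at 10 to 30 kb and 7.79 to 55.1 at 100 kb or more. Both hold the share of all genes in the class. At 30 to 100 kb it was 27.3 to 64.0, above that share. In the 5 members under 10 kb there was 1 control peak, in Smarcd2, and no Setd2-KO peak. Of all genes in that class, 2.09% carried a Setd2-KO peak and 7.04% carried a control peak. Of the members with a control peak, 3 of 14 in the longest class also had a Setd2-KO peak (21.4%, 95% CI 4.66 to 50.8), beside 34.3% of all such genes, and 14 of 24 did in the class of 30 to 100 kb (58.3%, 95% CI 36.6 to 77.9), beside 35.9%. The intervals overlap, and the difference between the classes was not tested.

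**Figure D2:**
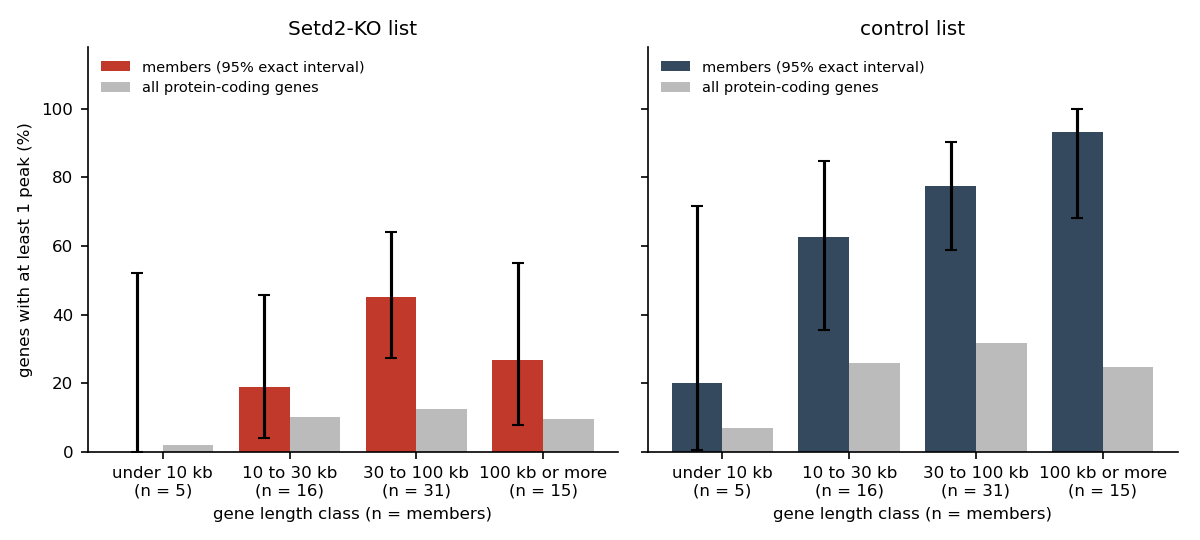
Share of genes with at least 1 peak (vertical axis, %) by gene length class, for the Setd2-KO list (left panel) and the control list (right panel). Coloured bars are members with 95% exact intervals and grey bars are all protein-coding genes. In the control list the members' share is above the grey bar in each class and reaches 93.3% at 100 kb or more, while in the Setd2-KO list the highest share is 45.2% at 30 to 100 kb. Under 10 kb the control share rests on 1 gene of 5, and its interval (0.505 to 71.6) holds the share of all genes.

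The DNA under peaks that were called in both lists, and under peaks of genes that had none in Setd2-KO PTECs, is shown so that these kinds can be compared. Each line gives 200 bases of GRCm38 centred on the summit of a control peak, read along the strand of the gene, with coding exon bases in capitals. The first set holds the strongest control peak that overlapped a Setd2-KO peak in each of 3 CHD genes, at chr6:125106096-125106295 (Chd4, plus strand), chr7:73445012-73445211 (Chd2, minus strand) and chr14:52204801-52205000 (Chd8, minus strand).
Chd4: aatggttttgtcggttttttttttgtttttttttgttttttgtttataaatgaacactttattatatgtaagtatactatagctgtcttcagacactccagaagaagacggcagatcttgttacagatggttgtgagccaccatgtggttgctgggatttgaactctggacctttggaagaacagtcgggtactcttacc
Chd2: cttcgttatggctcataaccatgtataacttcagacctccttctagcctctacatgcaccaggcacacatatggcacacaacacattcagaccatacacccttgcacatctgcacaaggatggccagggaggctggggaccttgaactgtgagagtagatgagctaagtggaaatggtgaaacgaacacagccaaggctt
Chd8: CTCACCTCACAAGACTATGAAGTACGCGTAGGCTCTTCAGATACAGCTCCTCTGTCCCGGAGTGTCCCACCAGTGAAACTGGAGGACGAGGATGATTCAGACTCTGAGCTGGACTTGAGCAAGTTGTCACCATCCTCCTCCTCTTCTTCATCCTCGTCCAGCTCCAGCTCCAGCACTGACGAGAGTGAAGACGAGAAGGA
The second set holds the strongest control peak of each of 3 members that had no Setd2-KO peak at all, at chr19:26699020-26699219 (Smarca2, plus strand), chr15:98844517-98844716 (Kmt2d, minus strand) and chr5:25275535-25275734 (Kmt2c, minus strand).
Smarca2: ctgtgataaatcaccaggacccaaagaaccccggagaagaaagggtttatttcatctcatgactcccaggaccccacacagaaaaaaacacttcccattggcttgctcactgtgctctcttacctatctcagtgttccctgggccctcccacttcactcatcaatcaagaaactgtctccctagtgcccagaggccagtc
Kmt2d: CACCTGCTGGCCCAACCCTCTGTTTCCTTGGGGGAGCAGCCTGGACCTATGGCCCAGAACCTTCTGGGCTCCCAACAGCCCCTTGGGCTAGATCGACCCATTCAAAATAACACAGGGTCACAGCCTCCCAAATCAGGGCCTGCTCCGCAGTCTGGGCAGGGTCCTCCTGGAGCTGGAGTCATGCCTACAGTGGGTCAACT
Kmt2c: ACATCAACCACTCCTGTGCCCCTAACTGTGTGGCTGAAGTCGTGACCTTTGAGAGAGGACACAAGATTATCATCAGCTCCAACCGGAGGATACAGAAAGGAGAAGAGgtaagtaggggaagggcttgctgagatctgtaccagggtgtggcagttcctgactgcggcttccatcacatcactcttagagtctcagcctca
Both sets contain intronic and coding sequence. The Chd8 window lies entirely in exon 32 of 38, the Kmt2d window in exon 40 of 55, and the Kmt2c window covers 107 coding bases at the end of exon 58 of 59 and the start of the intron after it. The Setd2-KO peak of Chd8 (chr14:52204582-52204870) reaches only the last part of the printed Chd8 window, and the summits lay 175 bp apart. That Setd2-KO peak was weak, with a fold enrichment of 3.23 and a pileup of 24 fragments. Its -log10 q of 3.99 was the lowest of the members' Setd2-KO peaks. The windows held between 1 and 7 CpG in 200 bases. Among the windows with coding sequence, the GC content was 53.5% in Chd8, 60% in Kmt2d and 51.5% in Kmt2c. The Chd4 window is mostly repeat sequence, with 95.5% of its bases soft-masked (written as repeats) in the reference, against 14.5% in Chd2 and 25.5% in Chd8. Reads of 75 bases map less surely in repeats, and the part of this in the Chd4 peak was not tested. Over all member peaks the median GC content was 45.2% in Setd2-KO PTECs and 46.5% in control PTECs, and the median soft-masked share was 18.2% in Setd2-KO PTECs and 15.3% in control PTECs. The 24 Setd2-KO peaks that lay on a control peak had a median GC content of 47.1% and a median soft-masked share of 17.2%, and the other 23 had 43.7% and 20.4%. The 26 control peaks that overlapped a Setd2-KO peak had a median soft-masked share of 26.3%, and the other 225 had 14.5%. At least 50% of the bases were soft-masked in 7 of those 26 (26.9%) and in 25 of the 225 (11.1%), and the part of this in the sharing was not tested.

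By total bases, though not per gene, the CHD remodellers were the most covered group. At the median of the genes marked in control PTECs, 2867 bp were covered in CHD genes and 3848 bp in H3K4 methyltransferase genes. Of 10 CHD genes, 6 carried a Setd2-KO peak (60%, beside 7.76% of all genes) and 9 carried a control peak (90%, beside 20.5%). Peaks covered 9931 bp of the CHD genes in Setd2-KO PTECs and 38459 bp in control PTECs. The share of the 9 that also carried a Setd2-KO peak, 66.7%, had an interval (29.9 to 92.5) that holds the 34.5% of all genes. Role groups of the members were not set beside genes of like length. Chd2, a chromodomain helicase linked to transcribed chromatin and DNA repair (chr7:73426638-73541830), had 10 peaks over 4137 bp in Setd2-KO PTECs and 29 peaks over 14373 bp in control PTECs. By covered bases it ranked 35 of the 1613 genes marked in Setd2-KO PTECs and 15 of the 4270 genes marked in control PTECs. Of its 10 Setd2-KO peaks, 4 lay on a control peak, and the other 6 were called between control peaks or beside them. Chd4, the main ATPase of the NuRD deacetylase complex (chr6:125095981-125130591), had 7 peaks over 3659 bp in Setd2-KO PTECs, which was 10.6% of the gene, and 12 peaks over 8764 bp in control PTECs, which was 25.3%. Of its Setd2-KO peaks, 6 lay on control peaks. All 7 lay upstream of the last 4 control peaks of the gene. The strongest Setd2-KO peak in any member, at chr6:125105926-125106440 over exon 13 of Chd4, had a fold enrichment of 5.54 and a pileup of 45 fragments, and the control peak there (chr6:125105878-125107270) had 5.94 and 44 fragments, with summits 5 bp apart. This is the peak of the repeat-rich Chd4 window shown above.

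The other CHD genes held less. Chd8, a remodeller that binds beta-catenin and is mutated in autism, had 681 bp in Setd2-KO PTECs and 4393 bp in control PTECs. Chd9 had 737 bp in Setd2-KO PTECs and 2032 bp in control PTECs, and Chd6 had 390 bp in Setd2-KO PTECs and 2867 bp in control PTECs. Chd1, which reads methylated H3K4, had 327 bp in Setd2-KO PTECs and 1015 bp in control PTECs. Chd3, the alternative NuRD ATPase, had no Setd2-KO peak and 7 control peaks over 3469 bp, in contrast to Chd4. Chd7, the gene of CHARGE syndrome, and Chd1l, which responds to poly(ADP-ribose), had no Setd2-KO peak and 955 bp and 591 bp of control peaks. Chd5, a neural NuRD ATPase, had no peak in either list.

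**Figure D3:**
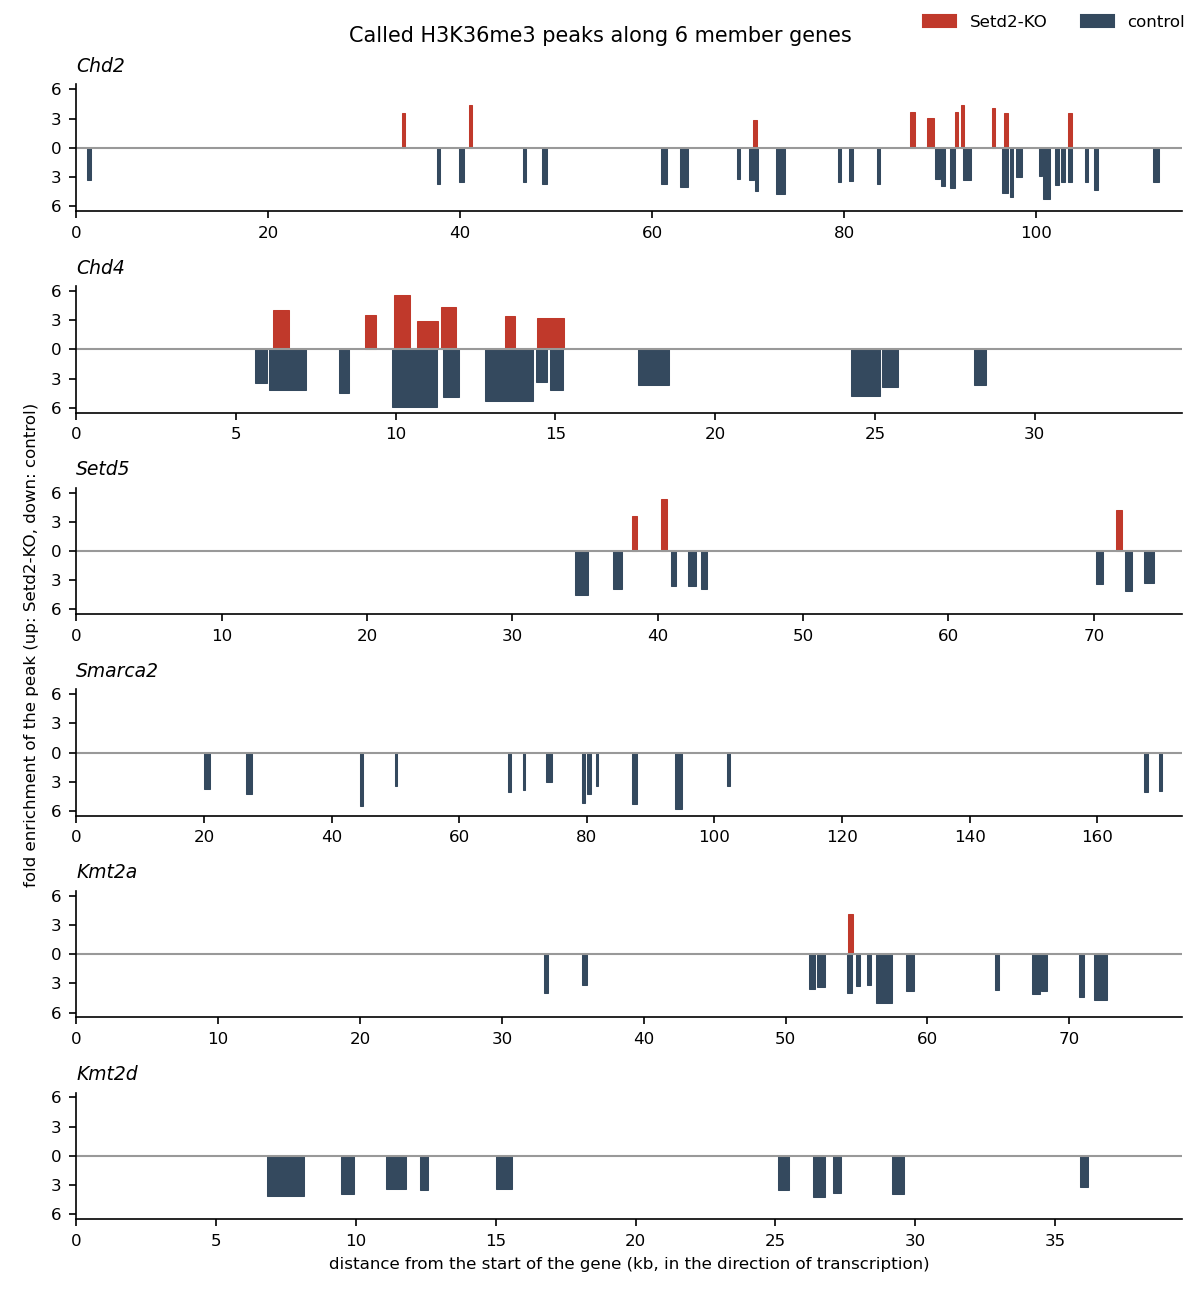
Called peaks along 6 members, drawn by distance from the start of the gene (horizontal axis, kb) with bar width the peak length and bar height its fold enrichment. Setd2-KO peaks point up and control peaks point down. Chd2 has 10 Setd2-KO and 29 control peaks, Chd4 has 7 and 12, Setd5 has 3 and 8, Smarca2 has 0 and 15, Kmt2a has 1 and 14, and Kmt2d has 0 and 10.

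The H3K4 methyltransferase group was formed by family name (KMT2 and SET1), not by shown activity. Each of its genes was marked in control PTECs, as were the 3 ISWI and other SNF2-family genes. Of the 7 KMT2 and SET1 genes, 4 carried a Setd2-KO peak (57.1%, beside 7.76% of all genes) and all 7 carried a control peak (beside 20.5%). Peaks covered 2103 bp of them in Setd2-KO PTECs and 28412 bp in control PTECs. The interval of the 57.1% (18.4 to 90.1) holds the 34.5% of all genes with a control peak that also had a Setd2-KO peak. Kmt2a, the MLL gene (chr9:44803355-44881296), had 1 peak of 343 bp in Setd2-KO PTECs and 14 peaks over 6878 bp in control PTECs. The Setd2-KO peak, at exon 21 of 36, had a fold enrichment of 4.11 and lay on a control peak of 3.98. Kmt2e, a divergent family member, was placed in this group by its symbol only. It had 3 peaks over 915 bp in Setd2-KO PTECs and 13 peaks over 5826 bp in control PTECs. Srpk2 overlaps Kmt2e, but none of the control peaks of Kmt2e lay in Srpk2. The SET1-type genes Setd1a and Setd1b had 439 bp and 406 bp in Setd2-KO PTECs, and 1547 bp and 3571 bp in control PTECs. Of the 4 control peaks of Setd1a, 2 also lay in the overlapping gene Gm49388. Kmt2d and Kmt2c, the enhancer H3K4 methyltransferases, and Kmt2b had no Setd2-KO peak. Kmt2d (chr15:98831669-98871204) held 10 control peaks over 5194 bp, of which 3 overlapped its large exon 40. Kmt2c held 9 control peaks over 3848 bp, and Kmt2b held 2 over 1548 bp.

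SWI/SNF genes were marked in control PTECs with 1 exception. Of 11 subunit genes, 3 carried a Setd2-KO peak (27.3%, beside 7.76% of all genes) and 10 carried a control peak (90.9%, beside 20.5%). The share of these 10 that also carried a Setd2-KO peak, 30%, had an interval (6.67 to 65.2) that holds the 34.5% of all genes. The subunit genes had 1656 bp covered in Setd2-KO PTECs and 23796 bp in control PTECs. The paired ATPases differed. Smarca2 (BRM, chr19:26605050-26778322) had no Setd2-KO peak and 15 control peaks over 9396 bp, the second largest control coverage of the members, with a fold enrichment of up to 5.80. Smarca4 (BRG1) had 1 Setd2-KO peak of 297 bp and 5 control peaks over 2176 bp. That Setd2-KO peak was weak, with a fold enrichment of 3.30, a pileup of 24 fragments and a -log10 q of 4.14. It is not kept with a fold enrichment of at least 4 or a -log10 q of at least 6. The scaffold subunits had 1051 bp in Setd2-KO PTECs and 3765 bp in control PTECs for Smarcc2 (BAF170), and no Setd2-KO peak and 1763 bp of control peaks for Smarcc1 (BAF155). Smarce1, an HMG-box subunit, had 308 bp in Setd2-KO PTECs and 2529 bp in control PTECs, and its Setd2-KO peak, of fold enrichment 4.91, lay 428 bp from the nearest control peak. The subunits without a Setd2-KO peak included Arid2 of PBAF, with 1708 bp in control PTECs, Arid1b of BAF with 1016 bp, and the core subunit Smarcb1 with 661 bp. Smarcd1 had 474 bp and Smarcd2 had 308 bp in control PTECs, and Smarcd3, the third alternative subunit of this kind, had no peak in either list.

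**Figure D4:**
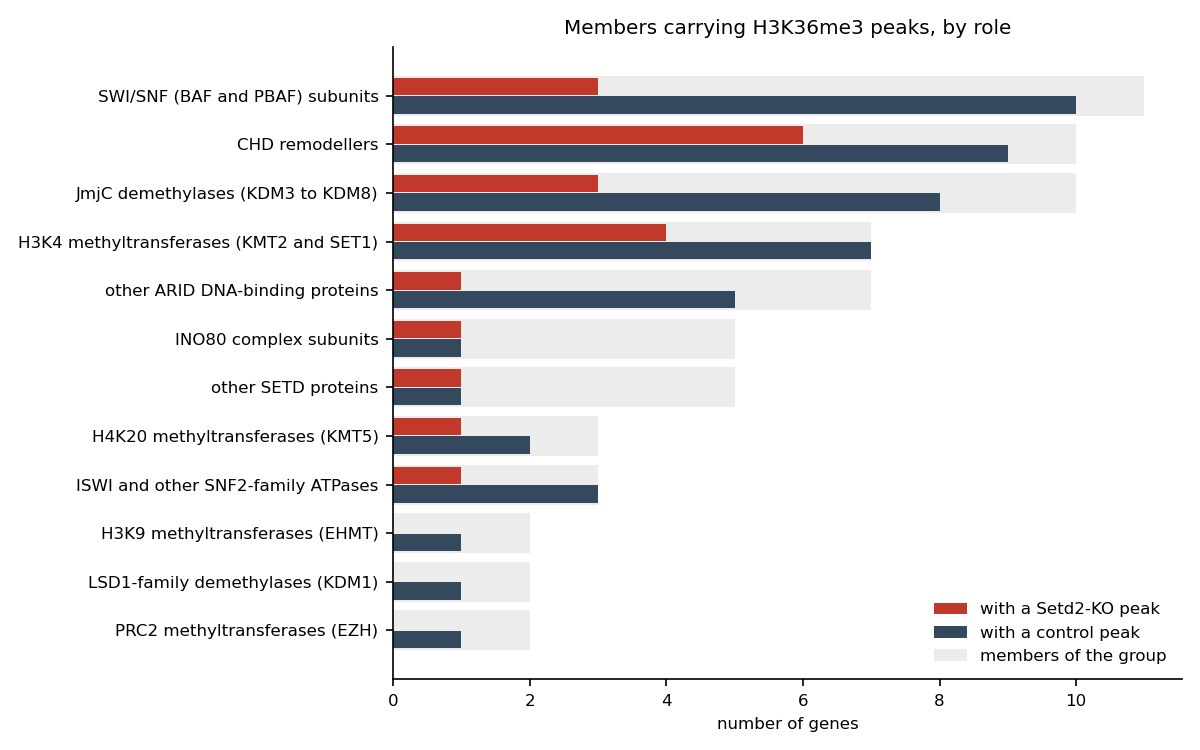
Number of members with a peak in each role group (horizontal axis, genes), with the Setd2-KO bar above the control bar and the group size in grey. SWI/SNF genes show 3 with a Setd2-KO peak and 10 with a control peak of 11, CHD genes 6 and 9 of 10, and H3K4 methyltransferases 4 and 7 of 7, whereas INO80 and other SETD genes show 1 and 1 of 5. The shares over all protein-coding genes were 7.76% in the Setd2-KO list and 20.5% in the control list.

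Among the demethylases, 3 of 10 JmjC genes carried a Setd2-KO peak (30%, beside 7.76% of all genes) and 8 carried a control peak (80%, beside 20.5%). Peaks covered 2667 bp of these genes in Setd2-KO PTECs and 10873 bp in control PTECs. The share of the 8 that also carried a Setd2-KO peak, 37.5%, had an interval (8.52 to 75.5) that holds the 34.5% of all genes. The H3K4 demethylases Kdm5a and Kdm5b stood at the head of the Setd2-KO list within this group. Kdm5b had 3 peaks over 1399 bp in Setd2-KO PTECs and 7 peaks over 2904 bp in control PTECs. Kdm5a had 3 peaks over 979 bp in Setd2-KO PTECs and 2 peaks over 1037 bp in control PTECs, so that its covered bases in Setd2-KO PTECs were 94.4% of those in control PTECs. All of its peaks, in both lists, lay in introns in the first of 5 equal parts of the gene. Kdm3b, an H3K9 demethylase, had 289 bp in Setd2-KO PTECs and 1667 bp in control PTECs, and its relative Kdm3a had no Setd2-KO peak and 2233 bp in control PTECs. Kdm4b and Kdm4c, which act on H3K9 and H3K36, had no Setd2-KO peak and 833 bp and 626 bp in control PTECs. Kdm7a had 803 bp and Kdm6b, an H3K27 demethylase, had 770 bp in control PTECs, again with no Setd2-KO peak. Kdm4d and Kdm8 had no peak in either list. Of the LSD1-type demethylases, Kdm1b had 1 control peak of 371 bp and no Setd2-KO peak, and Kdm1a had none in either list.

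Setd5, a SET-domain protein that associates with histone deacetylase complexes, was the only marked gene of the 5 other SETD genes. It had 3 peaks over 1136 bp in Setd2-KO PTECs and 8 peaks over 4443 bp in control PTECs, and none of the 3 lay on a control peak. They lay 688 bp, 236 bp and 191 bp from the nearest one. Its peak at exon 11, chr6:113117614-113118019, had a fold enrichment of 5.30, above the highest control peak of the gene at 4.49. Setd3, Setd4, Setd6 and Setd7 had no peak. Of the 5 INO80 genes, the ATPase gene Ino80 had no Setd2-KO peak and 7 control peaks over 2880 bp, and Ino80d (chr1:62958418-63114667) had 1 Setd2-KO peak of 430 bp, with a fold enrichment of 3.55, and no control peak. Ino80d was the only member marked in Setd2-KO PTECs alone. Over all protein-coding genes, 140 of the 1613 marked in Setd2-KO PTECs were marked there alone. Ino80b, Ino80c and Ino80e had no peak.

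Of the ISWI and other SNF2-family ATPases, Smarcad1 had 464 bp in Setd2-KO PTECs and 1478 bp in control PTECs. Smarca5 (SNF2H, the ISWI ATPase) and Smarcal1, which acts at stalled replication forks, had no Setd2-KO peak and 2296 bp and 1045 bp in control PTECs. For H4K20, Kmt5b had 1 peak of 312 bp in Setd2-KO PTECs and 1 of 414 bp in control PTECs, 397 bp apart. Kmt5a had 400 bp in control PTECs and no Setd2-KO peak, and Kmt5c had no peak. The H3K9 and H3K27 methyltransferases came as pairs in which 1 gene was marked and only in control PTECs. Ehmt1 (GLP) had 1352 bp and Ezh1 had 1394 bp there, and Ehmt2 (G9a) and Ezh2 had no peak in either list. Of 7 other ARID genes, Arid4a, a Sin3-associated protein, had 608 bp in Setd2-KO PTECs and 1156 bp in control PTECs. Arid5b (1197 bp), Arid4b (698 bp), Arid3a (361 bp) and Arid3b (306 bp) had control peaks only, and Arid5a and Arid3c had none.

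The 17 members without a peak in either list had a median length of 17594 bp and ran between 3130 bp and 72884 bp. Of these, 5 had a Setd2-KO peak and 5 had a control peak within 10 kb outside the gene body. The same count was not made for other unmarked genes, so these numbers have no baseline. The absence of a called peak is not the absence of the mark, since weaker signal below the threshold of the lists was not analysed here.

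Within the members, Setd2-KO peaks lay partly on control peaks and partly near them. Of the 47 Setd2-KO peaks, 24 overlapped a control peak by 1 bp or more (51.1%, 95% CI 36.1 to 65.9), compared with 60.7% of all Setd2-KO peaks in protein-coding genes. Of the 251 control peaks, 26 overlapped a Setd2-KO peak (10.4%, 95% CI 6.88 to 14.8), compared with 12.5% of all. Several peaks come from the same gene, with 10 of the Setd2-KO peaks in Chd2 and 7 in Chd4, and the intervals do not allow for this. Without these genes the shares were 46.7% of 30 Setd2-KO peaks and 7.14% of 210 control peaks. The median fold enrichment was 3.73 for the 26 shared control peaks and 3.78 for the other 225. Of the 23 Setd2-KO peaks not on a control peak, 22 were in a member with control peaks elsewhere, at a median distance of 598 bp from the nearest (12 to 5441 bp). When peaks within 1 kb were counted as shared, the share was 85.1% of Setd2-KO peaks and 21.1% of control peaks.

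Of the 24 shared Setd2-KO peaks, 3 overlapped more than 1 control peak and were set against the strongest. At the 24 places, the fold enrichment was lower in Setd2-KO PTECs at 14, and the Setd2-KO peak was shorter at 15. The median ratio of fold enrichment, Setd2-KO over control, was 0.977 (0.496 to 1.34). Their summits lay a median of 154 bp apart, 17 of them within 200 bp, and the median lengths were 425.5 bp for the Setd2-KO peaks and 449.5 bp for the control peaks. The ratio was lowest at exon 14 of Chd4, with a fold enrichment of 2.94 in Setd2-KO PTECs and 5.94 for the control peak, which is the long control peak that the exon 13 peak also overlaps. It was highest at a Setd2-KO peak over exons 4 and 5 of Smarcc2. The control peak it overlaps there touches exon 3, and the summits lay 570 bp apart. With the control peak of nearest summit taken in place of the strongest, a choice made after the data had been seen, the fold enrichment was lower in Setd2-KO PTECs at 13 places and the median ratio was 0.990. A peak enters this comparison only where it was called in both lists, so these ratios do not measure the places where the Setd2-KO peak was lost.

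**Figure D5:**
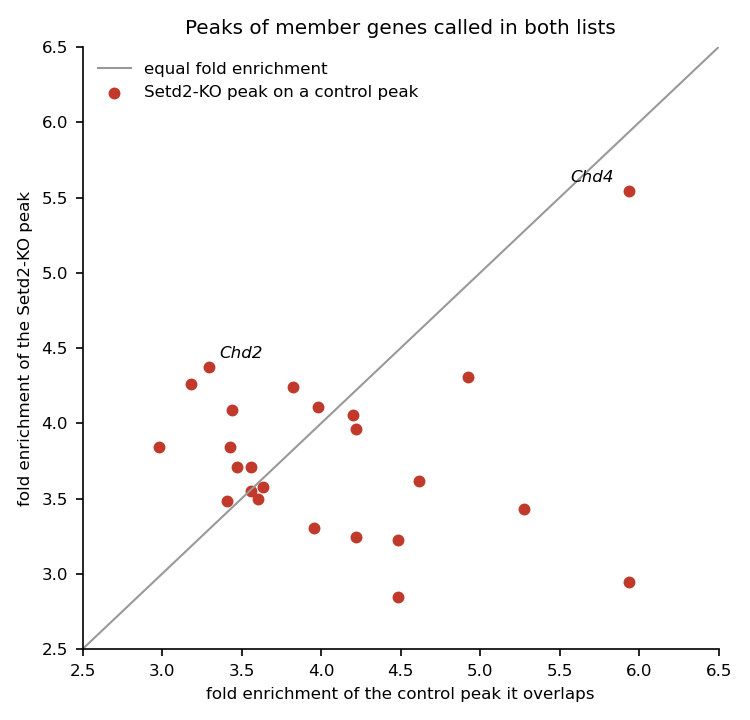
Fold enrichment of each of the 24 Setd2-KO peaks that overlapped a control peak in a member (vertical axis) against that of the strongest control peak it overlaps (horizontal axis), with the line of equal values. The points lie on both sides of the line, 14 below it, and the Chd4 point at 5.54 and 5.94 is farthest along it.

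Over all peaks of the members, the lists gave similar medians of strength. In Setd2-KO PTECs the median peak of a member had a fold enrichment of 3.71 (quartiles 3.50 and 4.12), and in control PTECs it had 3.78 (quartiles 3.45 and 4.09), beside 3.85 in the Setd2-KO list and 3.83 in the control list for all peaks in protein-coding genes. Summits had a median of 30 fragments in either list, the median -log10 q was 6.20 in Setd2-KO PTECs and 6.73 in control PTECs, and the median length was 372 bp in Setd2-KO PTECs and 422 bp in control PTECs. Both lists ended at a similar threshold (lowest -log10 q 3.08 in the Setd2-KO list and 3.09 in the control list), so these medians do not measure how much mark was lost.

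A smaller share of Setd2-KO than of control peaks lay in coding exons of the members. In Setd2-KO PTECs 4 of 47 peak midpoints lay in a coding exon (8.51%, 95% CI 2.37 to 20.4) and in control PTECs 57 of 251 did (22.7%, 95% CI 17.7 to 28.4). Over all protein-coding genes the order was the other way round, at 22.3% in the Setd2-KO list and 17.4% in the control list. Introns held 42 of the 47 Setd2-KO midpoints (89.4%) and 187 of the 251 control midpoints (74.5%). The intervals for coding exons overlap, several peaks come from the same gene, and 10 of the 47 Setd2-KO peaks lay in Chd2, all in introns. Counting any contact with an exon, 46.8% of Setd2-KO peaks and 60.2% of control peaks of the members touched one.

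Each gene was also cut into 5 equal parts in the direction of transcription. The 47 Setd2-KO midpoints numbered 5, 10, 6, 14 and 12 in these parts, with 25.5% (95% CI 13.9 to 40.3) in the last. The 251 control midpoints numbered 12, 25, 51, 69 and 94, more in each part than in the one before, with 37.5% (95% CI 31.4 to 43.8) in the last, so the intervals for the last part overlap. Over all protein-coding genes the last part held 35.1% of Setd2-KO and 35.8% of control midpoints. Several peaks come from the same gene, and the intervals do not allow for this. All 3 Setd2-KO peaks of Kdm5a lay in the first part, and most Setd2-KO peaks in the second part lay in Chd4 and Chd2. The Setd2-KO profile thus rests largely on a few genes. No member peak of either list had its midpoint within 1 kb of the gene start.

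Further genes of the same complexes and of other histone lysine methyltransferases, 92 in all, were listed beside the members. Of these, 27 carried a Setd2-KO peak and 52 carried a control peak, and each of the 27 was marked in both lists. These were 29.3% of the 92 in Setd2-KO PTECs, beside 7.76% of all genes, and 56.5% in control PTECs, beside 20.5%. The partners were also longer, with a median of 30487.5 bp against 17636 bp for all protein-coding genes, and were not set beside genes of like length. Of the partners, 51.9% of those with a control peak also had a Setd2-KO peak, beside 34.5%. They held 16092 bp in Setd2-KO PTECs and 120355 bp in control PTECs. Partners of INO80, SRCAP and TIP60 were the most covered, with 9 of 22 marked in Setd2-KO PTECs and 16 of 22 in control PTECs. The ATPase gene Srcap had 419 bp in Setd2-KO PTECs and 11263 bp in control PTECs, Trrap, a scaffold of acetyltransferase complexes, had 617 bp in Setd2-KO PTECs and 8471 bp in control PTECs, and Ep400 had 314 bp in Setd2-KO PTECs and 6540 bp in control PTECs. Among ISWI partners, 2 of 9 were marked in Setd2-KO PTECs and 6 of 9 in control PTECs, and Baz1b had 1880 bp in Setd2-KO PTECs and 9504 bp in control PTECs. Of the SWI/SNF partners, 4 of 17 were marked in Setd2-KO PTECs and 9 of 17 in control PTECs. In Actb, which encodes beta-actin, 2036 bp were covered in Setd2-KO PTECs and 3031 bp in control PTECs. Of 11 NuRD partners, 3 were marked in Setd2-KO PTECs and 5 in control PTECs, among them Mta2 with 336 bp in Setd2-KO PTECs and 2224 bp in control PTECs. Of 11 COMPASS partners of the H3K4 methyltransferases, 4 were marked in Setd2-KO PTECs and 7 in control PTECs, among them Wdr82, a SET1 subunit, with 442 bp in Setd2-KO PTECs and 4219 bp in control PTECs. Of 8 PRC2 partners of Ezh1 and Ezh2, 2 were marked in Setd2-KO PTECs and 3 in control PTECs, among them the core subunit Suz12 with 289 bp in Setd2-KO PTECs and 1130 bp in control PTECs. Of 15 other histone lysine methyltransferase genes, 3 were marked in Setd2-KO PTECs and 6 in control PTECs. Nsd1, an H3K36 dimethyltransferase, had 738 bp in Setd2-KO PTECs and 6974 bp in control PTECs, and its relative Nsd3 had no Setd2-KO peak and 3601 bp in control PTECs.

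The members were also set beside 3 other gene families. In Setd2-KO PTECs a peak was called in 13 of 51 DEAD and DEAH box helicase genes (25.5%, 95% CI 14.3 to 39.6), 14 of 82 RING finger genes (17.1%, 95% CI 9.66 to 27.0) and 13 of 50 ubiquitin-specific protease genes (26.0%, 95% CI 14.6 to 40.3), against 31.3% of the members. In control PTECs it was called in 26 of the helicase genes (51.0%, 95% CI 36.6 to 65.2), 26 of the RING finger genes (31.7%, 95% CI 21.9 to 42.9) and 29 of the protease genes (58.0%, 95% CI 43.2 to 71.8), against 73.1% of the members (95% CI 60.9 to 83.2). The members' interval in control PTECs lies above that of the RING finger genes and overlaps those of the helicase and protease genes. No test between families was made, and their genes also differ in length, with medians of 22805 bp for the helicase, 27250 bp for the RING finger and 52536 bp for the protease genes.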

How the data were processed

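H3K36me3 ChIP-seq and input libraries (1 each per genotype) were made from PTECs and grouped by the genotype in the sample labels. Under replicates, the study's reporting form describes the material otherwise. It names neoplastic masses of 1 MYC-overexpressing mouse with Setd2 deleted and kidney cysts of 1 such mouse without the deletion. Elsewhere the same form gives its peak totals for Setd2-KO and control PTECs, as in the labels. The labels were followed, and which description holds is not settled here. Per the submitters' processing notes, the authors trimmed 75-base single-end reads with cutadapt 1.9.1 and Trimmomatic 0.35, mapped them to GRCm38 with Bowtie2 2.2.6 and called peaks with MACS2 2.1.1 against the matching input. The methods state a p-value cutoff of 0.01. The deposited lists are stricter (lowest -log10 q 3.08 in the Setd2-KO and 3.09 in the control list). The reporting form names a filter on false discovery rate and a fold enrichment of 5, and 92.5% of Setd2-KO and 94.3% of control peaks in the deposited lists lie below that fold, so the filter that made them is not clear. The deposited pileup is a signal, the number of extended fragments at the summit, and the deposited fold enrichment is the ratio of pileup to local background. The -log10 p and -log10 q values are those of the authors' peak caller. No read count was used here. The local background was recovered from pileup and fold enrichment, and its lowest value per list served as the measure of depth.

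Genes came from GENCODE M21. A gene was marked by any peak that overlapped its body by 1 bp or more, and peaks of the lists counted as shared under the same minimum. Exons, and the class of a peak midpoint, came from the principal transcript, and positions are 1-based. Sequences and soft-masking came from the RefSeq copy of GRCm38. Overlap counting was tested on 20 simulated sets. Python packages were pandas 2.3.3, numpy 2.4.6, scipy 1.17.1 and matplotlib 3.10.9. With 1 library per genotype no test between genotypes was made. The members, role groups, partner genes and cell type markers were chosen with earlier results of these data known. Values were given by a rule: members with a Setd2-KO peak, the 25 with the most control bases and the 3 most covered of each role group. The other members are named, and those with a control peak are given with their covered bases too, so that every member is accounted for. Alternatives changed the overlap rule, the fold enrichment or -log10 q required, the number of peaks needed, peaks in other genes, peaks over high background and the meaning of shared. The totals without Chd2 and Chd4 and the pairing by nearest summit were added after the data had been seen.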

Additional observations from a re-analysis of the deposited data

How the results depend on the processing

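A count was taken as moved when it changed by over 1.5 times, and a share when it left its 95% interval. Of 42 values under 8 alternatives, 14 moved by this limit and 28 did not. With a fold enrichment of at least 4, 10 members were marked in Setd2-KO and 29 in control PTECs, 24.1% of those marked in control PTECs also had a Setd2-KO peak, covered bases came to 6730 bp for Setd2-KO peaks and 47829 bp for control peaks, and 18.75% of Setd2-KO and 3.80% of control peaks were shared. With -log10 q of at least 6, 15 members were marked in Setd2-KO and 44 in control PTECs, 29.5% of the 44 also had a Setd2-KO peak, 86900 bp of the members lay under control peaks, 10609 bp were covered in Setd2-KO PTECs, and 26.9% of Setd2-KO and 4.73% of control peaks were shared. With at least 2 peaks needed, 9 members were marked in Setd2-KO PTECs and 21.95% of the 41 marked in control PTECs also were in Setd2-KO PTECs. With shared taken as within 1 kb, 85.1% of Setd2-KO and 21.1% of control peaks were shared. The stricter rules leave fewer peaks by construction. Under each of them fewer members were marked in Setd2-KO than in control PTECs. No paired analysis was possible because each genotype had 1 ChIP library. For the same reason no library could be left out, and differences between animals or preparations cannot be told apart from the genotype.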
